A study of Homo sapiens with 5 samples.

Results

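The 37 genes of the human mitochondrial genome were examined in RNA sequencing of an astroglial cell line with and without an edited IDH1 allele. They were taken as all genes whose symbol starts with MT- and that have a value, which gave 37 of the 57905 genes with counts. They comprise 13 messenger RNAs, 2 ribosomal RNAs and 22 transfer RNAs, and each of the 37 was found by its Ensembl identifier on chromosome M of the GENCODE annotation. Total RNA came from SVG-10B1, an established human astroglial line. The edited cells carry IDH1 R132H/WT, a substitution in 1 of the alleles of the cytosolic isocitrate dehydrogenase, and are represented by clone 2 (1 library) and clone 6 (2 libraries, replicates 1 and 2). The unedited line, which the labels call wild type and clone 1, has 2 libraries. All cells grew in the same serum-containing medium, and a single unedited line stands against 2 edited clones, so the edit and differences between clones cannot be told apart. Whether the replicates were cultured separately is unstated, so p-values reflect only the spread between these libraries, which may be technical.

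Mitochondrial DNA is a small circle transcribed from both strands as long precursors. Transfer RNAs lie between most of the other genes, and their excision releases the ribosomal and messenger RNAs, as well as the transfer RNAs themselves. All 13 messenger RNAs encode subunits of the respiratory chain and ATP synthase: MT-ND1 to MT-ND6 and MT-ND4L of complex I, MT-CYB of complex III, MT-CO1 to MT-CO3 of complex IV, and MT-ATP6 and MT-ATP8 of complex V. MT-RNR1 and MT-RNR2 are the 12S and 16S RNAs of the mitochondrial ribosome. Every protein factor that copies, transcribes, processes or translates this genome is imported from the cytosol.

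Reads assigned to genes ranged from 13572114 to 16559077 in edited libraries and from 17603317 to 21881726 in wild type. Clone 2 was nearly alike to replicate 1 of clone 6, with a median coefficient of variation of 2.52% over 4441 genes above 50 CPM (read counts scaled to library size), against 9.88% between the clone 6 replicates and 4.45% between the wild-type replicates. Clone 6 replicate 2 therefore stands apart from the other edited libraries. Whether the clone and replicate labels of the alike pair are right could not be settled from the counts, so values per clone hold only as far as those labels do. Among astrocyte markers, VIM and CD44 were abundant (252 to 729 CPM), GJA1 had 352 to 452 CPM in edited libraries and 156 to 168 CPM in wild type, SLC1A3 and SOX9 were low (4.50 to 9.88 CPM), and GFAP, SLC1A2, ALDH1L1, S100B and AQP4 were at or below 0.613 CPM in every library. Summed markers of neurons, of endothelial cells and of microglia and blood were at or below 1.55 CPM, and those of oligodendrocytes ranged from 8.80 to 10.7 CPM over all libraries.

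Mitochondrial messenger RNAs took a small and fairly steady part of the reads. Their share of reads was 0.302% for clone 2, with 0.265 and 0.185% for replicates 1 and 2 of clone 6, against 0.227 and 0.295% for wild-type replicates 1 and 2. Wild type lies inside the range of the edited libraries, and the highest of the 5 shares is 1.63 times the lowest. Without any ribosomal RNA in the denominator the shares were 0.303, 0.294 and 0.187% in the edited libraries, in the same order, against 0.245 and 0.301% in wild type. Clone 6 replicate 2 is the lowest on both scales. In bulk RNA, fewer mitochondria per cell and less RNA per mitochondrion cannot be told apart.

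Levels of the 13 messenger RNAs were uneven. Per kilobase of gene, the mean over the 5 libraries was highest for MT-CO3 (1258 CPM per kb), followed by MT-CO1 (573), MT-CO2 (411) and MT-ND3 (193). A middle group held MT-CYB (65.3 CPM per kb), MT-ATP6 (60.03), MT-ND4L (57.1) and MT-ND4 (51.5). MT-ND5 (38.2 CPM per kb) and MT-ND1 (23.8) came next, and MT-ATP8 (17.3), MT-ND2 (15.5) and MT-ND6 (14.3) were lowest. The ranges over libraries overlapped between neighbours for MT-CO1 and MT-CO2 and at each step from MT-CYB down to MT-ND6, and did not overlap at the other steps. The top of this order is 87.8 times the bottom. MT-CO1, MT-CO2 and MT-CO3, the catalytic core of cytochrome c oxidase, together gave 85.0 to 86.0% of mitochondrial messenger RNA reads in edited libraries and 83.4 to 83.8% in wild type.

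**Figure D1:**
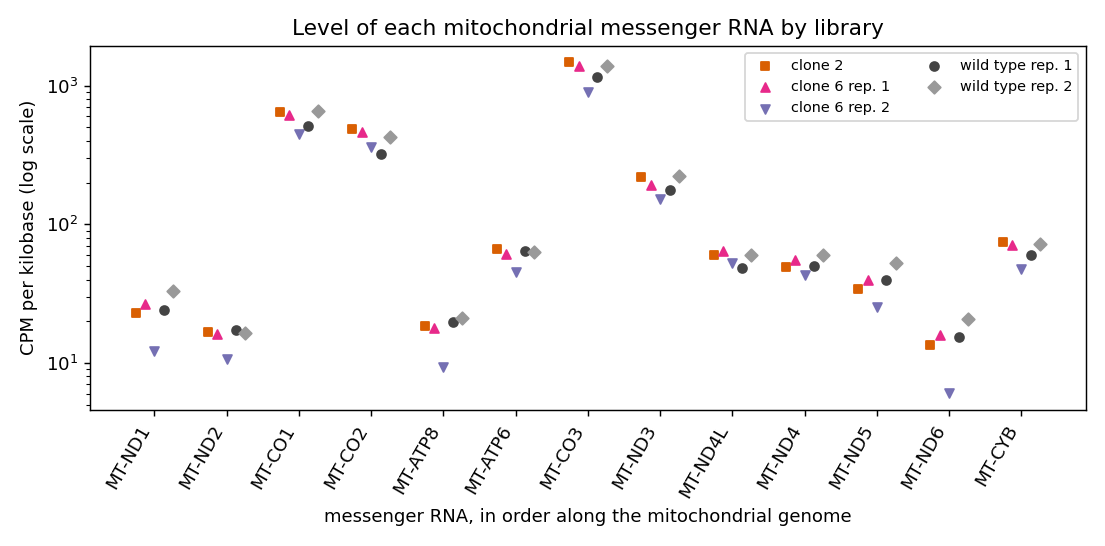
Level of each mitochondrial messenger RNA in CPM per kilobase of gene (log scale), in order along the genome, with 1 point per library for clone 2, clone 6 and wild type. MT-CO3 is highest at a mean of 1258 and MT-ND6 lowest at 14.3 CPM per kb, and clone 6 replicate 2 is the lowest library for 11 of the 13 genes.

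How reads can be assigned limits these levels. The nuclear genome holds copies of mitochondrial DNA, and reads that match more than 1 place or gene are commonly set aside in gene counting. Windows of 50 bases were therefore compared with the annotated transcripts of all other genes. MT-CO1 shared 49.5% of its windows with such copies, mainly the pseudogene MTCO1P12, MT-ATP6 shared 46.7% (MTATP6P1), MT-ND2 43.6% (MTND2P28), MT-CO3 30.6% (MTCO3P12), MT-CO2 28.98% (MTCO2P12) and MT-ND1 22.05% (MTND1P23). MT-ND3 and MT-ND4L shared none, and MT-CYB 1.19%. The share did not follow the level: across the 13 genes, which are not independent replicates, Spearman's rho between shared windows and CPM per kb was 0.135. MTATP6P1 itself held 59 reads for clone 2, with 51 and 40 for replicates 1 and 2 of clone 6, against 107 and 83 in wild type. Its counts were 8.06 to 9.44% of those of MT-ATP6 in edited libraries and 10.6 to 11.3% in wild type, a ratio that was not tested. Among the levels of all genes tested, 25.3% were lower and 26.1% higher in edited libraries without overlap, and edgeR did not call MTATP6P1 (adjusted p = 0.213). Levels of genes with many shared windows are therefore uncertain.

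Overlapping genes are a second limit on single levels. MT-ATP8 and MT-ATP6 are read from a shared transcript in different frames, as are MT-ND4L and MT-ND4, and the end of the first gene of each pair is also the start of the second. The shared stretches, 5′ to 3′, come from GENCODE 29 transcripts (GRCh38) and mark where a read falls on both genes. In the first, which is shared over all of its 46 bases, capitals mark the start codon of MT-ATP6. In the second, the last 30 bases of MT-ND4L, capitals mark the 7 bases shared with MT-ND4.
MT-ATP8 and MT-ATP6: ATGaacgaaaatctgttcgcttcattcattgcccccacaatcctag
MT-ND4L: gtacataacctaaacctactccaATGCTAA
MT-ATP8 is 207 bases long and had 59 reads from clone 2, with 48 and 31 from replicates 1 and 2 of clone 6, against 89 and 79 in wild type. Those are the lowest counts of any of the 13 genes in these libraries.

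Whether mitochondrial transcripts differ with the IDH1 genotype was tested with the 3 edited against the 2 wild-type libraries. None of the 13 messenger RNAs was called, either lower or higher, at an adjusted p below 0.05 in edgeR's quasi-likelihood test. Over all 16471 genes tested, 17.1% were called, 9.49% lower and 7.64% higher. The median log2 fold change of the 13 was -0.15, against 0.02 over all genes tested, and 11 of the 13 had a negative value. None passed an unadjusted p of 0.05 in edgeR, and DESeq2 called 0 of the tested mitochondrial genes (lowest adjusted p = 0.141). The 95% intervals of the 13 log2 fold changes ran from -1.50 at the lowest bound to 0.64 at the highest. They hold larger falls than rises, with the lowest bounds at -1.50 for MT-ND6, -1.23 for MT-ND1 and -1.16 for MT-ATP8. Without the low-count filter edgeR called MT-ND1, MT-ND5 and MT-ND6 lower (adjusted p = 0.0258, 0.00314 and 0.0251), as well as both ribosomal RNAs. In that fit 7.36% of all genes were called lower and 5.88% higher. There MT-RNR2 had a log2 fold change of -0.55 (adjusted p = 4.46e-07), although its edited libraries ranged from 773 to 18432 CPM. The p-values of that fit thus do not reflect such a spread, and its calls are not relied on.

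Of the 13, the complex I genes MT-ND6, MT-ND1 and MT-ND5 had the most negative fold changes, though none met the threshold. MT-ND6 (ENSG00000198695), the only messenger RNA on the strand opposite to the rest, had 7.03 CPM for clone 2, with 8.42 and 3.19 CPM for replicates 1 and 2 of clone 6, against 8.09 and 10.9 CPM in wild type. Its edited and wild-type values overlap. The log2 fold change was -0.62 (95% interval -1.50 to 0.27, adjusted p = 0.302). The strand setting used in counting is not stated, so reads of opposite-strand transcripts that cross MT-ND6 cannot be told apart from its own. MT-ND5 (ENSG00000198786), a subunit of the proton-pumping membrane arm, had 62.4 CPM for clone 2, with 72.1 and 45.7 CPM for replicates 1 and 2 of clone 6, against 71.4 and 94.7 CPM in wild type. Clone 6 replicate 1 lies just above the lower wild-type library, and the log2 fold change was -0.47 (-0.96 to 0.02, adjusted p = 0.169), the lowest adjusted p of the 13. MT-ND1 (ENSG00000198888), at the joint of the membrane arm and the arm that oxidises NADH, had 21.9, 25.7 and 11.6 CPM in the edited libraries in the same order, against 23.2 and 31.5 CPM in wild type (log2 fold change -0.47, -1.23 to 0.28, adjusted p = 0.351). The other 4 subunits of the complex I group, MT-ND2, MT-ND3, MT-ND4 and MT-ND4L, had log2 fold changes of -0.22, -0.08, -0.15 and 0.11. MT-ND4L, for example, had 17.7, 19.0 and 15.7 CPM in edited libraries and 14.5 and 17.9 CPM in wild type.

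The oxidase and cytochrome b messenger RNAs were near their wild-type levels in fold change. MT-CO1 (ENSG00000198804) had 991 CPM for clone 2, with 940.4 and 687 CPM for replicates 1 and 2 of clone 6, against 795 and 1007 CPM in wild type, a log2 fold change of -0.05 (95% interval -0.48 to 0.38). MT-CO3 (ENSG00000198938) had 1153, 1086 and 701 CPM in the same edited libraries, against 898 and 1095 CPM in wild type (log2 fold change -0.02, -0.54 to 0.49). Both genes span wild type in the same way, with clone 2 above or near its top and clone 6 replicate 2 below it. MT-CO2 (ENSG00000198712), which receives electrons from cytochrome c, had 336, 316 and 246 CPM in the edited libraries, against 219 and 291 CPM in wild type. It had the highest fold change of the 13 (log2 0.23, -0.18 to 0.64, adjusted p = 0.407). Without clone 6 replicate 2 it was called higher, by 0.34 on the log2 scale (adjusted p = 0.0347), in a fit where 19.7% of all genes were called lower and 17.2% higher. Its edited samples are just the pair of nearly alike libraries. MT-CYB (ENSG00000198727) had 85.5, 81.0 and 54.7 CPM in edited libraries and 68.8 and 82.4 CPM in wild type (log2 fold change -0.04, -0.51 to 0.44).

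Of the ATP synthase messenger RNAs, MT-ATP6 (ENSG00000198899), part of the proton channel, had 45.2 CPM for clone 2, with 41.4 and 31.0 CPM for replicates 1 and 2 of clone 6, against 43.7 and 43.1 CPM in wild type (log2 fold change -0.15, 95% interval -0.54 to 0.24). MT-ATP8 (ENSG00000228253) had 3.81, 3.68 and 1.94 CPM in the same edited libraries, against 4.11 and 4.35 CPM in wild type. It was the only 1 of the 13 whose edited and wild-type values did not overlap, a pattern that 25.3% of all genes tested showed in the same direction and 26.1% in the other, and its log2 fold change of -0.43 had an interval of -1.16 to 0.29 (adjusted p = 0.367).

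**Figure D2:**
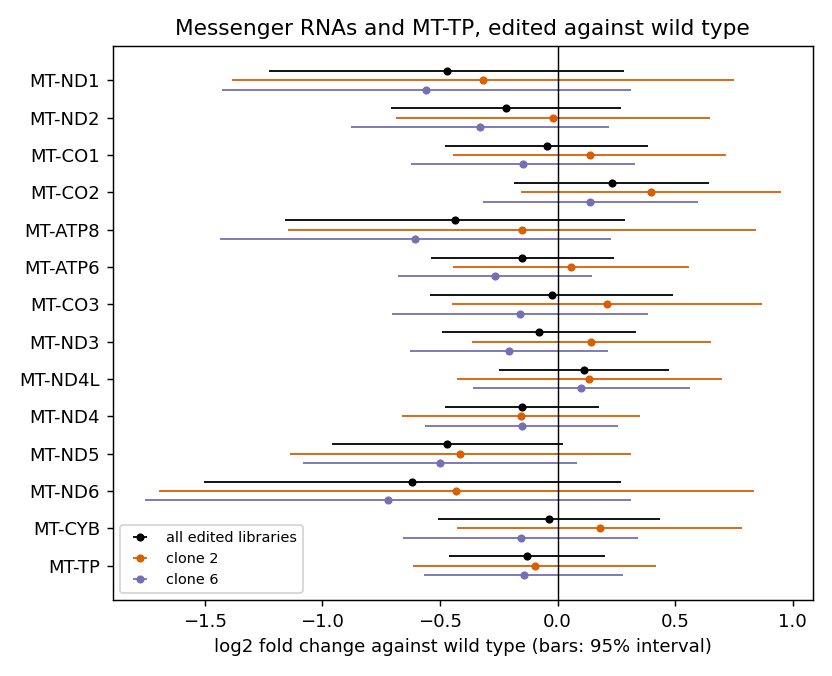
Log2 fold change of the 13 messenger RNAs and the transfer RNA MT-TP against wild type, for all edited libraries, clone 2 and clone 6, with 95% intervals as bars. Each of the 3 intervals of each gene crosses 0, from MT-ND6 at -0.62 to MT-CO2 at 0.23 for all edited libraries.

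The downward shift was seen mainly in clone 6 replicate 2. Relative to the mean log2 CPM of wild type, the 13 messenger RNAs had a median of 0.06 for clone 2, with -0.04 and -0.49 for replicates 1 and 2 of clone 6, against -0.15 and 0.15 in the wild-type replicates themselves. In clone 6 replicate 2 all 13 lay below the wild-type mean, with values from -1.56 to -0.03, and 11 lay below both wild-type libraries. In clone 6 replicate 1 the number between the 2 wild-type values was 8, and in clone 2 it was 4. Clone 2 lay below both wild-type libraries for MT-ND1, MT-ND4, MT-ND5, MT-ND6 and MT-ATP8. It lay above both for MT-CO2, MT-CO3, MT-ATP6 and MT-CYB. Wild type itself was not uniform, since replicate 2 exceeded replicate 1 for 11 of the 13.

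**Figure D3:**
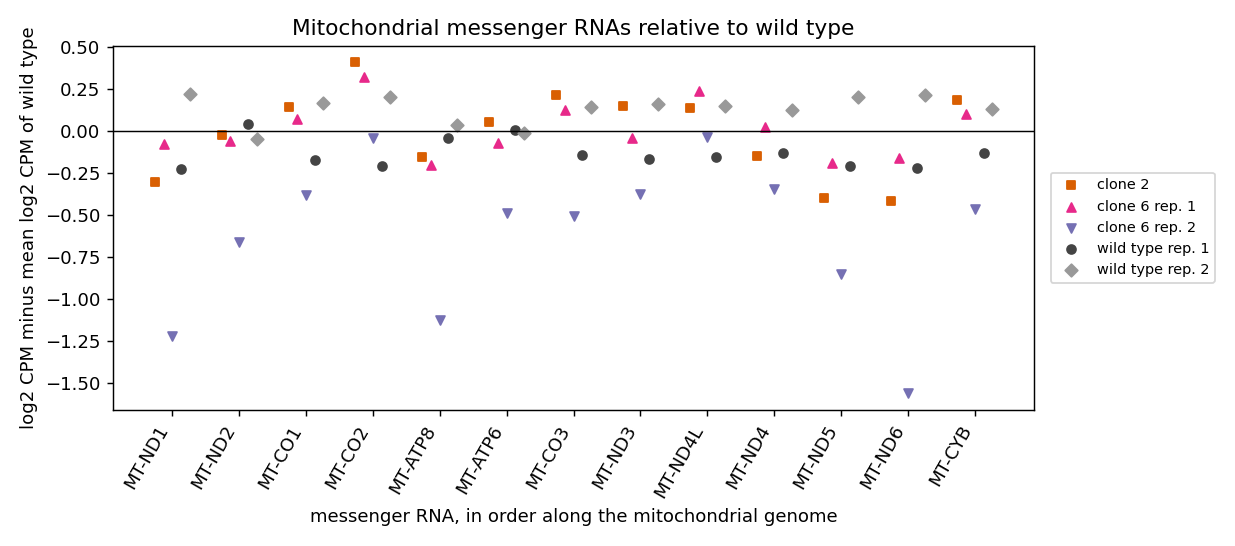
Log2 CPM of each mitochondrial messenger RNA minus the mean log2 CPM of the 2 wild-type libraries, with 1 point per library and genes in genome order. Clone 6 replicate 2 has all 13 values below 0, from -1.56 for MT-ND6 to -0.03, while clone 2 and clone 6 replicate 1 have medians of 0.06 and -0.04.

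Taken by clone, 0 of the 13 were called in clone 2 (3.81% of all genes called, 2.16% lower and 1.65% higher), 0 in clone 6 (8.98%, 5.11% lower and 3.87% higher) and 0 between clone 6 and clone 2 (0%), and 0 of the 13 passed an unadjusted p of 0.05 in any of these edgeR tests. Across all genes, 114 passed an unadjusted p of 0.05 between the clones. Median log2 fold changes were 0.06 for clone 2, -0.21 for clone 6 and -0.29 between clone 6 and clone 2. The clone 6 result depended on which library labelled clone 6 was used. With replicate 2 as its only library, 8 of the 13 were called lower than wild type (15.1% of all genes called lower and 16.2% higher), and with replicate 1 as its only library 0 were (12% called lower and 9.4% higher). In those fits the lone library is assumed to vary like the wild-type pair, which alone sets the spread. The 8 were MT-ND6 (-1.57 on the log2 scale, adjusted p = 0.00353), MT-ND1 (-1.23, adjusted p = 0.00306), MT-ATP8 (-1.12), MT-ND5 (-0.86), MT-ND2 (-0.66), MT-CO3 (-0.51), MT-ATP6 (-0.48) and MT-CYB (-0.47). Against clone 2, clone 6 replicate 2 was lower for 2 of the 13, MT-CO3 (-0.72 on the log2 scale, adjusted p = 0.0359) and MT-CYB (-0.65, adjusted p = 0.0493), where 2.22% of all genes were called lower and 3.1% higher. A difference between 2 libraries of the same clone has no replicate of its own.

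Shares within the mitochondrial messenger RNAs do not depend on library scaling. MT-ND5 took 2.16% of these reads for clone 2, with 2.62 and 2.38% for replicates 1 and 2 of clone 6, against 3.11 and 3.32% in wild type. MT-ND6 took 0.244, 0.306 and 0.166% in the edited libraries in that order, against 0.353 and 0.382% in wild type. Both shares were lower in every edited library than in either wild-type library, and the same held for MT-ND1 and MT-ATP8. MT-CO2 took 11.6% for clone 2, with 11.5 and 12.8% for replicates 1 and 2 of clone 6, against 9.54 and 10.2% in wild type. It was the only gene whose share was higher in every edited library. The groups thus did not overlap for 4 genes in the lower and 1 in the higher direction, and the other 8 overlapped. Of all genes tested, 13.4% were lower without overlap and 17.3% higher when expressed per mitochondrial messenger RNA read. The shares sum to a fixed total and are not independent. With edgeR scaled to these reads, none of the 5 was called: MT-ND6 had a log2 fold change of -0.62 (adjusted p = 0.370), MT-ND5 of -0.43 (adjusted p = 0.649) and MT-CO2 of 0.28 (adjusted p = 0.8502). The 7 complex I genes together took 9.38 to 10.4% in edited libraries and 11.6% in both wild-type libraries.

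Within the overlapping pairs, MT-ND4L reads were 26.2% of MT-ND4 reads for clone 2, with 24.8 and 26.5% for replicates 1 and 2 of clone 6, against 21.0 and 21.8% in wild type. MT-ATP8 reads were 8.43, 8.89 and 6.25% of MT-ATP6 reads in the edited libraries, against 9.41 and 10.1% in wild type. Neither ratio overlapped between the genotypes, though each pair shares its transcript. No test was made of these ratios, and among the levels of all genes tested 25.3% were lower and 26.1% higher without overlap.

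The ribosomal RNAs varied far more between libraries than the messenger RNAs, and the genotypes overlapped. MT-RNR2 (ENSG00000210082), the 16S RNA of the large subunit, had 773 CPM for clone 2, with 18432 and 1166 CPM for replicates 1 and 2 of clone 6, against 15221 and 4143 CPM in wild-type replicates 1 and 2. MT-RNR1 (ENSG00000211459), the 12S RNA of the small subunit, had 130.4, 3269 and 182 CPM in the edited libraries, against 2302 and 615 CPM in wild type. Clone 6 replicate 1 was highest and clone 2 lowest for both, although these libraries were the closest of the 3 pairs compared over all genes. Their log2 fold changes of -0.51 and -0.29 had 95% intervals of -3.59 to 2.57 and -3.45 to 2.87 (adjusted p = 0.820 and 0.904), and 0 of the 2 were called in edgeR or in DESeq2. Without clone 6 replicate 1 both were called lower, by 3.32 and 3.22 on the log2 scale (adjusted p = 0.0290 and 0.0307; 5.43% of all genes called lower and 3.89% higher). Clone 2 is a single library, whose spread is taken from the other groups. Against wild type its log2 fold changes were -3.65 for MT-RNR2 and -3.48 for MT-RNR1, and neither was called (adjusted p = 0.306 and 0.337), nor was either without each wild-type library in turn or with scaling that leaves out ribosomal RNA. Both were called lower with a replicate block (3.83% of all genes lower, 2.94% higher), without clone 6 replicate 1 (10.5% lower, 8.72% higher) and without clone 6 replicate 2 (12.2% lower, 9.48% higher). Between clone 6 and clone 2 neither was called (log2 fold changes 3.66 for MT-RNR2 and 3.73 for MT-RNR1, adjusted p = 1.00 for both). With 1 library on each side, clone 6 replicate 1 exceeded clone 2 by 4.57 and 4.65 on the log2 scale (adjusted p = 0.0416 for both; 0.0309% of all genes called higher), while for clone 6 replicate 2 the values were 0.59 and 0.48 (adjusted p = 0.628 and 0.714).

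The cytosolic 28S RNA moved with them. The gene RNA28S5 took 0.321% of reads for clone 2, with 7.69 and 0.4998% for replicates 1 and 2 of clone 6, against 5.49 and 1.75% in wild-type replicates 1 and 2, a span of 23.9 times. MT-RNR2 took 0.0810, 1.77 and 0.113% in the same edited libraries, against 1.51 and 0.428% in wild type, a span of 21.9 times. Their ratio stayed nearly fixed: MT-RNR2 counts were 25.2, 23.0 and 22.5% of those of RNA28S5 in clone 2 and clone 6 replicates 1 and 2, against 27.4 and 24.5% in wild type, a span of 1.22 times. The order of the libraries was thus the same for MT-RNR2 and RNA28S5. The cytosolic 18S gene RNA18S5 held only 78 reads for clone 2, with 1062 and 83 for replicates 1 and 2 of clone 6, against 1181 and 254 in wild type. Nearly all counted cytosolic ribosomal RNA was therefore RNA28S5. Any removal of ribosomal RNA before sequencing is not described in the labels, and its part in these values was not tested. With the cytosolic ribosomal RNA share as a covariate, the log2 fold change was 0.11 for MT-RNR1 and -0.09 for MT-RNR2 (adjusted p = 0.649 and 0.697). MT-RNR1 counts were 16.9, 17.7 and 15.6% of those of MT-RNR2 in the edited libraries, against 15.1 and 14.8% in wild type, a small difference without overlap, which was not tested and which 26.1% of all genes showed in their levels in the same direction.

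**Figure D4:**
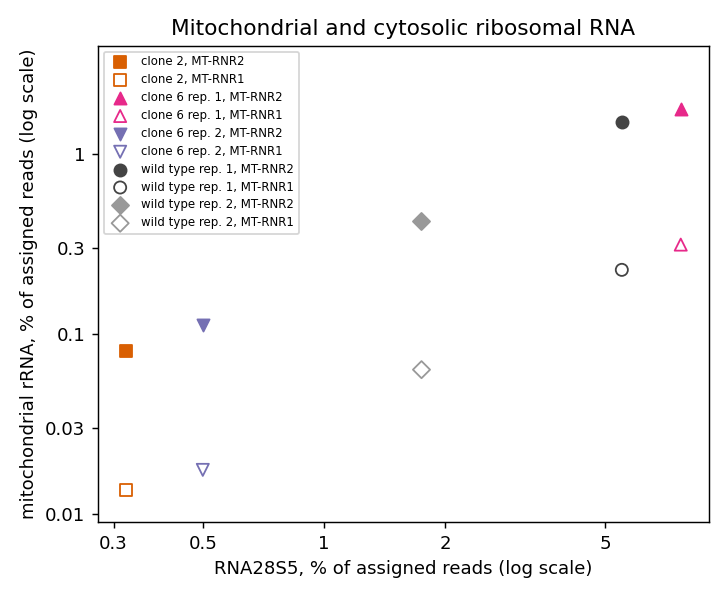
Percent of assigned reads taken by MT-RNR2 (filled) and MT-RNR1 (open) against the cytosolic RNA28S5, both axes on a log scale, with 1 marker shape per library of clone 2, clone 6 and wild type. Both mitochondrial RNAs rise with RNA28S5 from clone 2 (0.321% RNA28S5) to clone 6 replicate 1 (7.69%), and the MT-RNR2 to RNA28S5 ratio stays between 22.5 and 27.4%.

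The ribosomal RNAs were also a large and variable part of mitochondrial reads. All mitochondrial genes together took 0.400% of reads for clone 2, with 2.36 and 0.318% for replicates 1 and 2 of clone 6, against 1.96 and 0.790% in wild type. The messenger RNAs were 75.6, 11.2 and 58.3% of mitochondrial reads in the edited libraries, against 11.6 and 37.3% in wild type, while MT-RNR2 reads per messenger RNA read spanned 24.97 times over the 5 libraries.

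Transfer RNAs, which are 59 to 75 bases long, were hardly counted, with a single exception. Of the 22, MT-TP was the only one that passed the filter on low counts. Of the other 21, 12 had 0 reads in all 5 libraries and 9 had a few, with at most 7 reads in a library (MT-TY, the tyrosine transfer RNA, in clone 6 replicate 2) and 46 reads over all libraries. In these libraries 3 reads, the limit that a count of 0 allows, were 0.188 to 0.230 CPM in edited and 0.139 to 0.165 CPM in wild type, covering counting error only. For the 21 no difference was detectable at this depth.

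MT-TP (ENSG00000210196), the proline transfer RNA, held 2415 reads in all. It is encoded on the strand opposite to most genes, at the edge of the control region where replication and transcription start, and its neighbour MT-TT, the threonine transfer RNA on the other strand, had 0 reads in every library. Their sequences are shown because these adjacent genes of nearly equal length differ so much in counts, from GENCODE 29 transcripts (GRCh38), 5′ to 3′, with the anticodon in capitals.
MT-TP: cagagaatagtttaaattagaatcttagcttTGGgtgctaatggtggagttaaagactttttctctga
MT-TT: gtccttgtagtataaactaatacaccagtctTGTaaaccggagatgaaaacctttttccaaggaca
MT-TP had 28.2 CPM for clone 2, with 29.2 and 25.5 CPM for replicates 1 and 2 of clone 6, against 26.7 and 33.7 CPM in wild type. The groups overlap, and the log2 fold change was -0.13 (95% interval -0.46 to 0.20, adjusted p = 0.568). It held 96.7 to 98.4% of transfer RNA reads in edited libraries and 98.1 to 98.8% in wild type. Because the strand setting used in counting is not stated, reads of transcripts that cross this gene on either strand cannot be told apart from those of the transfer RNA. Clone 6 replicate 2 had the lowest MT-TP value too, just under that of wild-type replicate 1.

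Nuclear genes that serve the mitochondrial genome were read from the same test, in 14 lists chosen with earlier results of these data known. Among nuclear subunits of complexes I, III, IV and V, which join the mitochondrially encoded ones, 14 of 74 tested rose and 5 fell, with a median log2 fold change of 0.16. Over all genes tested, against which the counts of every list are to be read, 7.64% were called higher and 9.49% lower, with a median of 0.02. Complex III had 4 of 9 higher and 0 lower, with CYC1, the cytochrome c1 subunit, at 173 ± 10.7 CPM in edited libraries (SD, n = 3) and 109.5 ± 1.41 CPM in wild type (SD, n = 2; log2 fold change 0.66, edgeR adjusted p = 0.00564), followed by UQCRH (0.57) and UQCRC2 (0.51). Complex IV had 4 of 12 higher and 1 lower, led by COX7C (log2 fold change 0.68), COX5B (0.64) and COX7B (0.43). The complex I list, which includes NDUFA4 by its name (not called), had 5 of 38 higher and 3 lower. There NDUFS1, the iron-sulphur subunit that takes electrons on from NADH, fell by 0.72 on the log2 scale, while NDUFB9 and NDUFS5 rose by 0.58 each. Complex V had 1 of 15 higher and 1 lower, ATP5F1 (0.91) and ATP5L (-0.40). The median standard error was 0.20 for the 13 mitochondrial messenger RNAs and 0.10 for these nuclear subunits.

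Of complex II, which has no mitochondrially encoded subunit, SDHB rose by 0.49 and SDHD fell by 0.52 on the log2 scale, out of 4 tested. Of 8 genes of mitochondrial transcription none was called. POLRMT, the mitochondrial RNA polymerase, had 42.1 CPM for clone 2, with 47.2 and 51.8 CPM for replicates 1 and 2 of clone 6, against 46.7 and 42.1 CPM in wild type (log2 fold change 0.08, adjusted p = 0.686). TFAM of the replication and nucleoid list, which packages and bends mitochondrial DNA at promoters, had 144, 151 and 183 CPM in the edited libraries, against 152 and 161 CPM in wild type (log2 fold change 0.02, adjusted p = 0.919). TFB2M of the transcription list, an initiation factor, had 34.1, 36.8 and 44.6 CPM in the edited libraries and 37.4 and 44.6 CPM in wild type, a log2 fold change of -0.09 (adjusted p = 0.721). In clone 6 replicate 2, TFAM had its highest value, as did POLRMT, TFB1M (22.5 CPM), MTERFD1 (25.8 CPM) and, narrowly, TFB2M of the transcription list. The rest of that list, MTERFD2 (27.0 CPM), TEFM (19.7 CPM), MTERF (9.13 CPM) and MTERFD3 (4.44 CPM), had their lowest. Of 15 replication and nucleoid genes 0 rose and 2 fell, PRIMPOL by 0.76 and the polymerase POLG by 0.56 on the log2 scale, with 7.64% of all genes higher and 9.49% lower.

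For RNA processing and turnover, 3 of 30 rose and 1 fell (FASTKD1, -0.68), and this and the following counts stand beside 7.64% of all genes called higher and 9.49% lower. HSD17B10, a subunit of the mitochondrial RNase P, had a log2 fold change of 0.55, TBRG4 of 0.48 and PTCD2 of 0.73. LRPPRC and SLIRP, the pair that protects mitochondrial messenger RNAs, had values of 0.30 and 0.28 (adjusted p = 0.192 and 0.110). Of the mitochondrial ribosomal proteins, 3 of 46 tested in the large subunit rose and MRPL16 (-0.57) fell, and 4 of 29 in the small subunit rose and 1 fell, with MRPS18B (0.50), MRPS36 (0.45) and MRPS31 (-0.56) first by adjusted p. Of 19 transfer RNA ligases 2 rose and 1 fell (RARS2 0.51, WARS2 0.82, VARS2 -0.48), and of 16 translation factors 1 rose, GFM2 (0.67). Of 9 biogenesis regulators 0 were called. PPARGC1A, a coactivator that drives mitochondrial biogenesis, had 2.13 CPM for clone 2, with 2.68 and 4.69 CPM for replicates 1 and 2 of clone 6, against 1.39 and 0.935 CPM in wild type (log2 fold change 1.44, adjusted p = 0.0594), and NRF1 had a log2 fold change of -0.21 (adjusted p = 0.284). Of the 40 calls in these lists, only NDUFS1 and ATP5F1 held in every fit that left out a library. The rate for all called genes is not given, and some of those fits hold only 1 wild-type library. Of 188 nuclear copies of mitochondrial genes found by symbol, 44 had reads and 7 could be tested, with 0 called. MTCO1P12, MTCO2P12 and MTCO3P12, named above from GENCODE 29, are not among the 44. Whether they had no reads or stand under other symbols in the counts was not checked. MTRNR2L12, a copy of part of MT-RNR2, had 1, 36 and 2 reads in the edited libraries, against 38 and 10 in wild type, and its CPM followed the same order of libraries as MT-RNR2.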

How the data were processed

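The 5 libraries were made from total RNA of SVG-10B1 cells and read by Illumina HiSeq, according to the labels. Trimmomatic, STAR, HTSeq and the build hg19 (GRCh37) appear in the submitters' processing notes, where no version is given. The deposited values are raw counts of reads per Ensembl gene. Of 63677 genes listed per file, 5772 had no value, and 0 entries named no gene. Tests used edgeR 4.0.16 under R 4.3.3 (TMM scaling, filterByExpr, quasi-likelihood F test, Benjamini-Hochberg adjustment over 16471 genes, calls below 0.05), with 3 residual degrees of freedom for the genotype and 2 for the fit with 3 groups. CPM use TMM-scaled library sizes. Standard errors and intervals come from the fold change, its F value and the fit's degrees of freedom. Alternatives were DESeq2 1.42.0, other scalings and filters, a replicate block, a ribosomal RNA covariate and leaving out each library. Gene types, lengths and sequences came from GENCODE 29, a GRCh38 annotation, by gene identifier. All members are accounted for. Of other genes, 7 regulators and up to 3 called genes per list with the lowest adjusted p were named, besides genes named for shared sequence or as markers. FASTKD1, MTERF, MTERFD1, MTERFD2, MTERFD3, TEFM and TFB1M were named after their values were seen. The members and lists were chosen with earlier results of these data known. The test was checked on simulated counts.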

Additional observations from a re-analysis of the deposited data

How the results depend on the processing

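The genotype comparison was repeated under 15 alternatives. The median log2 fold change of the 13 messenger RNAs ran from -0.21 to -0.02 over 14 of them and was not computed under scaling to the mitochondrial messenger RNAs. Without a low-count filter 3 messenger RNAs (MT-ND1, MT-ND5 and MT-ND6) and 2 ribosomal RNAs were called lower. The p-values of that fit did not reflect the spread of MT-RNR2 between libraries, and the cause was not tested. Leaving out each library in turn gave 0 to 1 messenger RNAs called higher and 0 to 2 ribosomal RNAs called lower. The labels' replicate numbers (R1 and R2) are shared by wild type and clone 6 but cover only 2 pairs and name no common batch; the deviations of same-numbered libraries correlated at 0.214 over 16471 genes. With a replicate block, 0 mitochondrial genes were called by genotype (lowest adjusted p = 0.118), and 2 ribosomal RNAs were called lower in clone 2. Scaling to the mitochondrial messenger RNAs, applied to the clones after the data were seen, called 2 ribosomal RNAs lower in clone 2 and 2 higher in clone 6 against clone 2. The share of all genes called in those fits is not given. MT-RNR2 reads per messenger RNA read were 6.69 and 0.607 in replicates 1 and 2 of clone 6, against 0.268 in the single clone 2 library. Given that spread, these calls are not relied on. Leaving out libraries gave 0 to 2 ribosomal RNAs called lower in clone 2, 0 to 8 messenger RNAs and 0 to 2 ribosomal RNAs called lower in clone 6, and 0 to 2 messenger RNAs lower and 0 to 2 ribosomal RNAs higher between the clones.

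Small log2 fold changes changed sign. For the genotype, leaving out each library gave -3.22 to 0.96 for MT-RNR1, -3.32 to 0.71 for MT-RNR2, -0.21 to 0.13 for MT-CO1, -0.16 to 0.15 for MT-CO3, -0.24 to 0.092 for MT-ND3, -0.037 to 0.27 for MT-ND4L, -0.16 to 0.13 for MT-CYB and -0.29 to 0.046 for MT-TP, and the ribosomal RNA covariate gave 0.11 for MT-RNR1. For clone 2 the ranges were -0.063 to 0.023 for MT-ND2, -0.026 to 0.32 for MT-CO1, -0.015 to 0.32 for MT-ND3, -0.013 to 0.29 for MT-ND4L and -0.26 to 0.077 for MT-TP; the replicate block gave -0.053 for MT-ATP6, and messenger RNA scaling gave -0.026 for MT-CO1, -0.13 for MT-ATP6, -0.021 for MT-ND3 and -0.031 for MT-ND4L. For clone 6 they were -3.00 to 1.49 for MT-RNR1, -3.05 to 1.24 for MT-RNR2, -0.39 to 0.047 for MT-CO1, -0.056 to 0.36 for MT-CO2, -0.51 to 0.11 for MT-CO3, -0.048 to 0.26 for MT-ND4L, -0.35 to 0.0091 for MT-ND4, -0.47 to 0.087 for MT-CYB and -0.31 to 0.030 for MT-TP. The block gave -0.62 and -0.78 for MT-RNR1 and MT-RNR2 in clone 6, and messenger RNA scaling -0.15 for MT-RNR2 and 0.025 for MT-TP. Between clone 6 and clone 2 the ranges were -0.92 to 0.22 for MT-ND1, -0.19 to 0.17 for MT-ND4, -0.18 to 0.096 for MT-ND4L, -0.45 to 0.21 for MT-ND5, -1.14 to 0.26 for MT-ND6 and -0.15 to 0.047 for MT-TP, and messenger RNA scaling gave 0.017 for MT-ND1, 0.026 for MT-CO1, 0.061 for MT-CO2, 0.29 for MT-ND4L, 0.21 for MT-ND5 and 0.29 for MT-TP. Signs were kept in 216 of 240 combinations of gene and alternative for the genotype without a change of call.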
